A study of Mus musculus with 8 samples.

Results

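The genes described here encode enzymes and remodelers that act on chromatin: lysine demethylases, lysine methyltransferases, histone deacetylases, the Smarc family and the CHD family. They were chosen by symbol among the probe sets that name a single gene, which gave 68 genes with 163 probe sets out of 18193 genes named on the array. Kdm5c, Kdm5d and Kdm6a were left out by the rule. The tissue was the genital tubercle, the bud from which the external genitalia develop in both sexes, microdissected from FVB/N mouse embryos at 14 days post coitum (Theiler stage 22). There were 4 male and 4 female samples, each from unpooled tissue and each read on 1 Affymetrix MOE430 array. No sample carried a named allele or received a treatment.

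Chromatin modifiers write and erase marks on histone tails. Methyltransferases such as those of the Kmt2 family add methyl groups that mark active genes, Ezh1 and Ezh2 add the repressive Polycomb mark, demethylases remove methyl groups and deacetylases remove acetyl groups. Remodelers use ATP to move or evict nucleosomes: Smarca4 and Smarca2 are the alternative motors of the BAF (SWI/SNF) complex, Smarca5 and Smarca1 those of ISWI complexes, and Chd3 and Chd4 those of the NuRD complex, which also holds Hdac1 and Hdac2.

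Each difference is the male mean minus the female mean of log2(intensity + 16), given with its standard error (SE) from limma; for dim genes this scale makes a change look smaller than it is. Adjusted p-values are those of limma with Benjamini-Hochberg adjustment over all 22519 tested probe sets, and a probe set was called at an adjusted p under 0.05. Of the 163 probe sets, 119 from 64 genes were bright enough to be tested. Chd5, a CHD family member, the demethylases Kdm4b and Kdm4d, and the BAF subunit Smarcd1 had no tested probe set. Their intensities were 161 ± 62 in males and 61.9 ± 32.6 in females for Chd5, 118 ± 63 in males and 268 ± 89 in females for Kdm4b, and 164 ± 36 in males and 137 ± 26 in females for Kdm4d (SD, n = 4 each). Smarcd1 had 124 ± 8.14 in males and 221 ± 71 in females on its brighter probe set, and 18.4 ± 20.0 in males and 35.5 ± 20.5 in females on the other. A gene is represented by its brightest tested probe set unless another is named. Intensities are listed for replicates 1 to 4 of each sex. Shared litters or processing days are not given in the labels, so the p-values reflect only the scatter among these 8 arrays, part of which may be technical, and their number limits the precision.

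The arrays of the sexes differed beyond these genes. The 18S control intensity was 26742 ± 5680 on male arrays and 13215 ± 4445 on female arrays (SD, n = 4 each), and the median intensity was 211.7 to 249.4 on male arrays and 184.4 to 206.6 on female arrays. Both had non-overlapping ranges (exact permutation p = 0.0286, the smallest this design allows, adjusted p = 0.0338 over 13 array measures). Summed markers of skeletal muscle ranged from 18316 to 27638 in males and from 6131 to 15965 in females, with 5 of 7 tested markers called higher in males. Summed neuron markers were 10231 to 14408 in males and 7617 to 9092 in females, and 3 of 4 tested were called higher. Summed markers of endothelium, of erythroid cells, of macrophages and of gonad and ducts were also higher on every male array than on any female array, but their members did not all go the same way. For endothelium 3 of 4 tested markers were called higher and Cdh5 lower (-0.57). Among 3 tested erythroid markers Hbb-y was called higher (0.24), which makes up most of that sum, and Hbb-bh1 lower (-1.04). Among 3 tested macrophage markers Csf1r was called higher (0.38) and Cd68 lower (-0.88). Of 2 tested gonad and duct markers Sox9 was called higher and Foxl2 was at -0.04 and not called. Summed epithelial markers were 22011 to 24960 in males and 28636 to 30613 in females, with 3 of 5 called lower in males, and summed tubercle mesenchyme markers were 113081 to 122367 in males and 123622 to 138434 in females, with 2 of 5 called lower. The mesenchyme markers Hoxd13, Isl1, Tbx4, Wnt5a and Pdgfra were all detected on every array. No listed marker was at 0, but some were too dim to be tested. Among these, Amh had 5.55 to 10.75 and Aif1 4.04 to 41.51 over the 8 arrays. The part of these shifts in the differences below was not tested, except that each call was recomputed with the 18S level in the model. In tissue RNA, fewer cells of a type and less RNA per cell cannot be told apart.

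On the brightest probe sets the members were mostly lower in males where they were called. Of 64 genes, 7 were higher in males and 24 lower. Over all genes on the array, 42.2% were called on this measure, 14% higher and 28.2% lower in males. Over all 119 member probe sets the calls were 28 higher and 30 lower, 48.7% of those tested. The background over all tested probe sets was 40.5%, with 18.7% higher and 21.9% lower. Male and female intensities had separate ranges on 52 of the 119 (43.7%), against 37.1% of all tested probe sets. With the 18S level in the model, 7 of the 31 called genes still passed: Hdac6, Kdm1a, Setdb1, Smarca4, Smarcb1, Smarcc1 and Smarcc2, all lower in males. Their adjusted p-values in that limma fit ran from 0.0285 for Hdac6 to 0.0495 for Setdb1, while Smarcd3 had 0.0556 and Chd3 0.0596. Counted by probe set, 9 of the 119 member probe sets were called in that fit, and 1.84% of all tested probe sets (414). Of the 9, 1 was higher in males, against 60.6% of the 414. The differences of all 31 genes kept their sign in the fit with the 18S level, and 13 were at least as large in size as without it. Among those that no longer passed, Chd3 was at -1.27, Smarcd3 at -1.17, Hdac1 at -0.72, Kmt2a at 0.86 and Setd5 at 0.78, while Chd7 was at -0.45 and Kmt2e at -0.24. When the arrays were centred on their medians, which moved the median difference of all tested probe sets to -0.22, only 2 genes remained called higher in males, Kmt2a and Setd5, and the share of called genes that were higher fell to 5.71%, against 22.6% without centring. Over the brightest probe sets of all genes that share was 33.2% without centring. Counted by probe set, the share of calls that were higher was 23.8% with centring and 46.1% without over all tested probe sets. Among member probe sets it was 29.7% with centring and 48.3% without.

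**Figure D1:**
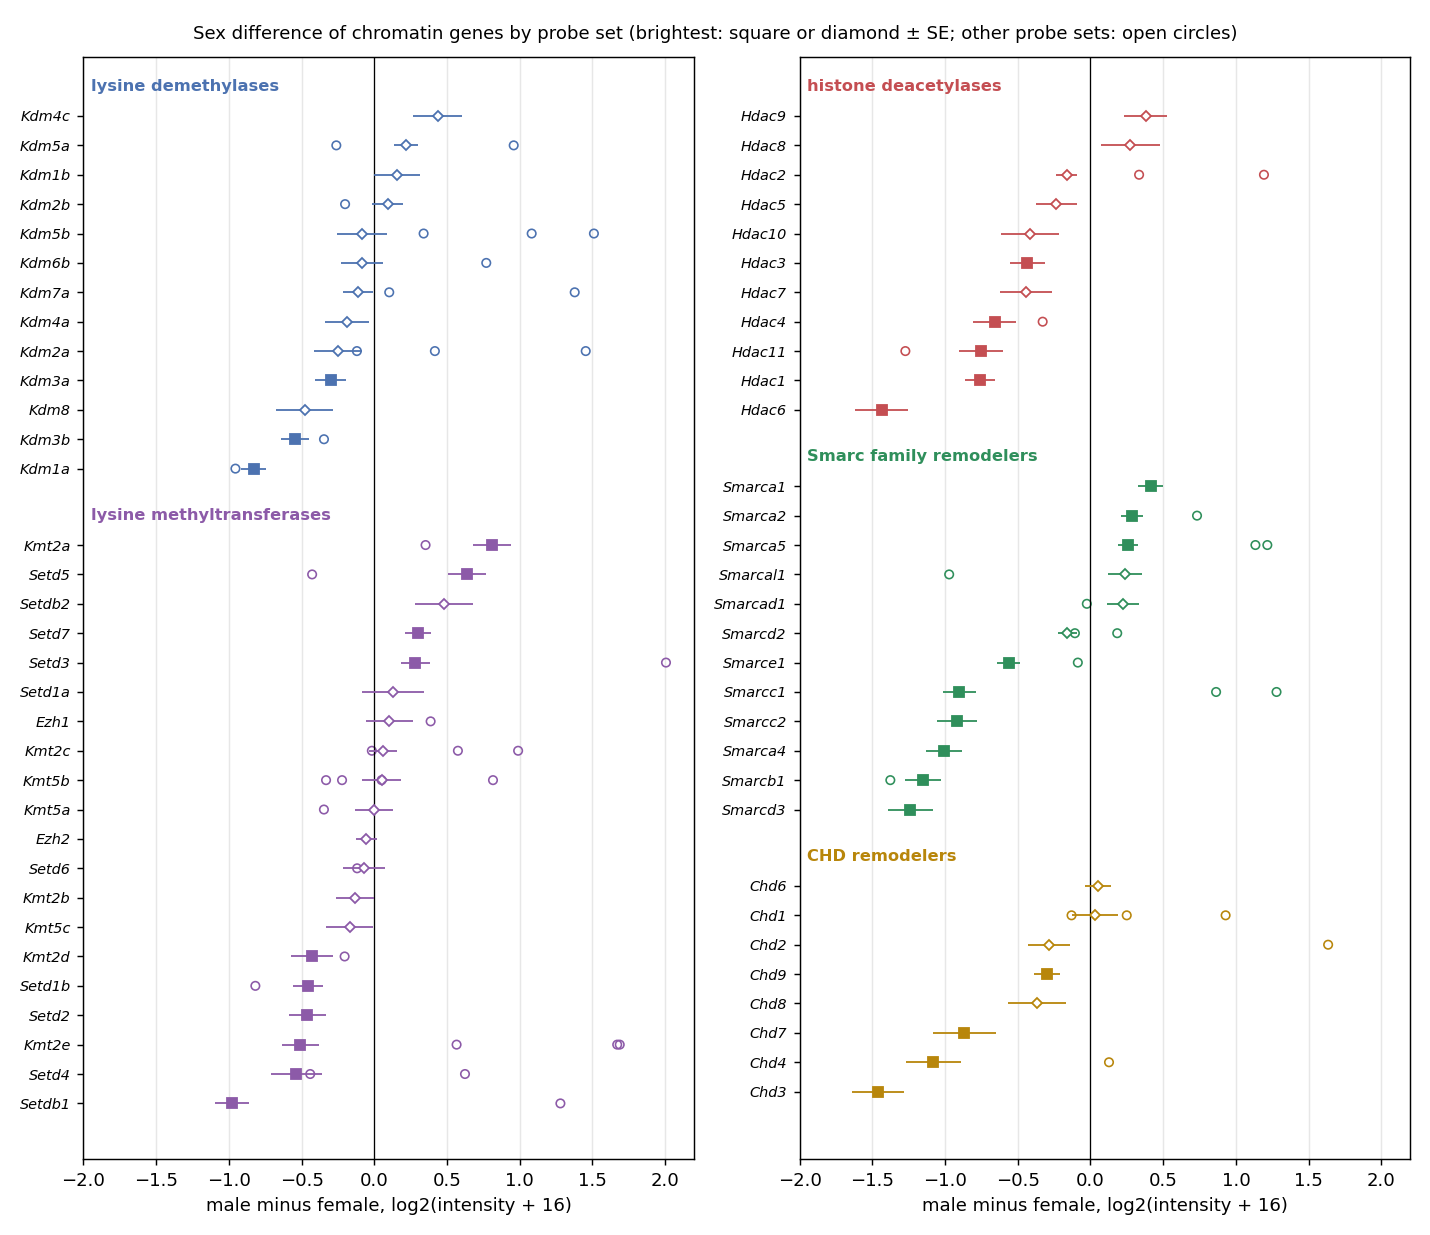
Difference male minus female (log2 of intensity + 16) of every tested probe set, by gene and role; filled squares are called brightest probe sets, white diamonds brightest probe sets that were not called, open circles the other tested probe sets of the gene. Brightest probe sets reach from -1.46 for Chd3 to 0.81 for Kmt2a, and many dimmer probe sets lie to the right of their gene's brightest.

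The Smarc family gave 9 calls among 12 tested genes (75%), 3 higher and 6 lower in males. All genes gave 42.2% called on this measure, 14% higher and 28.2% lower. The families are small, and their counts here and below are read against these shares as descriptions. The BAF motor Smarca4 and the subunits Smarcb1, Smarcc1, Smarcc2, Smarcd3 and Smarce1 were lower in males, while the alternative motor Smarca2 and both ISWI motors were higher. The promoters of 4 of these genes are shown because their genes lie on opposite sides of the comparison: Smarca4 and Smarcb1 were lower in males, and Smarca5 and Smarca1 higher. They were picked after their values were seen. Each is a window of 300 bases that holds the gene's start in RefSeq (GRCm38.p6), 5′ to 3′ on the gene's strand. The GC box GGGCGG or its complement CCGCCC is in capitals. The windows of Smarcb1, Smarca5 and Smarca1 run from 250 bases before to 50 bases after that start. The Smarca4 gene starts at position 21616106, so its window reaches less far before the start and further after it.
Smarca4, chr9:21615919-21616218, plus strand: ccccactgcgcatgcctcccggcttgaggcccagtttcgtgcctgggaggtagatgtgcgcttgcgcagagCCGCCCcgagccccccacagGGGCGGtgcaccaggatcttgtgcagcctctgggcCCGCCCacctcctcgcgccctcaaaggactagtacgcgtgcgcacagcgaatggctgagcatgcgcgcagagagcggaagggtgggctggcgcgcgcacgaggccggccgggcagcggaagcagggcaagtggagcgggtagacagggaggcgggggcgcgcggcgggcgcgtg
Smarcb1, chr10:75921565-75921864, minus strand: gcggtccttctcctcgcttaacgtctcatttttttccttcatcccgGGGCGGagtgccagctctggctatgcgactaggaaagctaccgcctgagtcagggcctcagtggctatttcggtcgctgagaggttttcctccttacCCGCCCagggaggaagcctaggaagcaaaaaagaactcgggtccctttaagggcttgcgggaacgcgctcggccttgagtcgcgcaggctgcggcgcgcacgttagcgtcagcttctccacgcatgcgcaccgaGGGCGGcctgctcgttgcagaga
Smarca5, chr8:80739410-80739709, minus strand: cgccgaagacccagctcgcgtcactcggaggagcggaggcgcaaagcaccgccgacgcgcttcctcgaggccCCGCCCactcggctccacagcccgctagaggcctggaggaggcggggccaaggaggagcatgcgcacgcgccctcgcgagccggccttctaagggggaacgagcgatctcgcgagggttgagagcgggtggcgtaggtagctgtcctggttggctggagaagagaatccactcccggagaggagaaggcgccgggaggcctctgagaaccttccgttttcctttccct
Smarca1, chrX:47892564-47892863, minus strand: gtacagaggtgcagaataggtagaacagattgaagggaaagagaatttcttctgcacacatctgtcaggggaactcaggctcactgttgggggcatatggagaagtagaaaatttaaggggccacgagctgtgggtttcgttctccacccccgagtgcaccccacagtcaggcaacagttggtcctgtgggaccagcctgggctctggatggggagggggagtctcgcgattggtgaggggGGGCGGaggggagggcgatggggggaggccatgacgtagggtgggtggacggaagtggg

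Promoters were found for 52 members, and 8 motifs were searched on both strands. The GC box was in 37 (71.2%), against 35.9% of 27025 promoters. The CCAAT box (CCAAT) was in 22 (42.3%), against 37.9% of all promoters, and the ETS core (CCGGAAG) in 8 (15.4%), against 9.12%. The TATA box (TATAAA) was in 3 (5.77%), against 14.2%, and the E box (CACGTG) in 1, against 7.24%. The YY1 motif (AAGATGGCG) was in 1 member promoter, against 1.49% of all, and the CREB motif (TGACGTCA) and the NRF1 motif were in none, against 1.88% and 0.977% of all. Member promoters also had a median GC content of 62.3%, against 52.7% over all promoters. The GC box was in 14 of 16 promoters of genes lower in males and in 5 of 7 of genes higher in males, and in 15 of 26 of genes not called, which is given as a description of these windows.

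Smarca4, the BAF motor also called Brg1, had intensities of 8339, 5626, 5556 and 5782 in males, against 12871, 12059, 12678 and 12608 in females. The ranges did not overlap, and male replicate 1 lay above the other males. The difference was -1.01 ± 0.12 (adjusted p = 0.000137). Smarca2, the alternative motor also called Brm, had 16109, 16252, 18165 and 17619 in males, against 14145, 12675, 14470.4 and 14689 in females. Every male array was above every female array, with a difference of 0.28 ± 0.08 (adjusted p = 0.0104); its dimmer probe set had 0.73 and did not pass.

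Smarcb1, a core subunit of BAF complexes, had 2855, 2245, 2036 and 2189 in males, against 5710.5, 5039, 4998 and 4869 in females. The ranges were apart and the difference was -1.15 ± 0.12 (adjusted p = 7.75e-05). Its dimmer probe set was also lower in males, at -1.38 ± 0.17. Smarcd3, a subunit found in muscle and heart forms of the complex, had 826, 767, 614 and 590.2 in males, against 1815, 1639.7, 1569 and 1606 in females. It was lower on every male array, by a difference of -1.24 ± 0.15 (adjusted p = 0.00015). The scaffold subunit Smarcc2 was lower at -0.92 ± 0.14 (adjusted p = 0.000418) and Smarce1, an HMG-box subunit, at -0.56 ± 0.08 (adjusted p = 0.000268). On its dimmer probe set Smarce1 was at -0.09 and did not pass.

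Smarcc1, the other scaffold subunit, was called in both directions. Its brightest probe set had 4389, 4308, 5174 and 3875 in males, against 9363, 7804, 7523 and 8446 in females, lower on every male array, with a difference of -0.90 ± 0.11 (adjusted p = 0.000149). A dimmer one had 5886, 2297, 3517 and 2009 in males, against 1606, 1847, 1643 and 1762 in females. There every male array was above every female array, with a difference of 0.86 ± 0.27 (adjusted p = 0.0215), and the dimmest tested one was at 1.28 ± 0.36 (adjusted p = 0.0135) with overlapping ranges. The call at 0.86 ended without male replicate 3, female replicate 1 or female replicate 3 (highest adjusted p = 0.0595).

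Smarca5, the ISWI motor also called Snf2h, was the member with 3 probe sets all called higher in males, at 0.26 ± 0.07, 1.22 ± 0.13 and 1.13 ± 0.24; it is given with array values after these were seen. The brightest had 19253, 21641, 21581 and 18912 in males, against 16961, 16692, 16811 and 17374 in females. The ranges were apart on all 3 probe sets. Smarca1, the X-linked ISWI motor also called Snf2l, had 12348, 15587, 13561 and 15097 in males, against 10139, 10402, 10398 and 11428 in females. It was higher on every male array, by 0.41 ± 0.09 (adjusted p = 0.00328). After median centring the differences of Smarca1, Smarca2 and Smarca5 were 0.20, 0.07 and 0.05 and did not pass.

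The other Smarc genes were not called on their brightest probe set. Smarcd2, a BAF subunit, was at -0.16, and the remodelers Smarcad1 and Smarcal1 were at 0.22 and 0.24. Smarcal1, an annealing helicase, had a dimmer probe set called lower in males at -0.97 ± 0.14 (adjusted p = 0.000342).

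**Figure D2:**
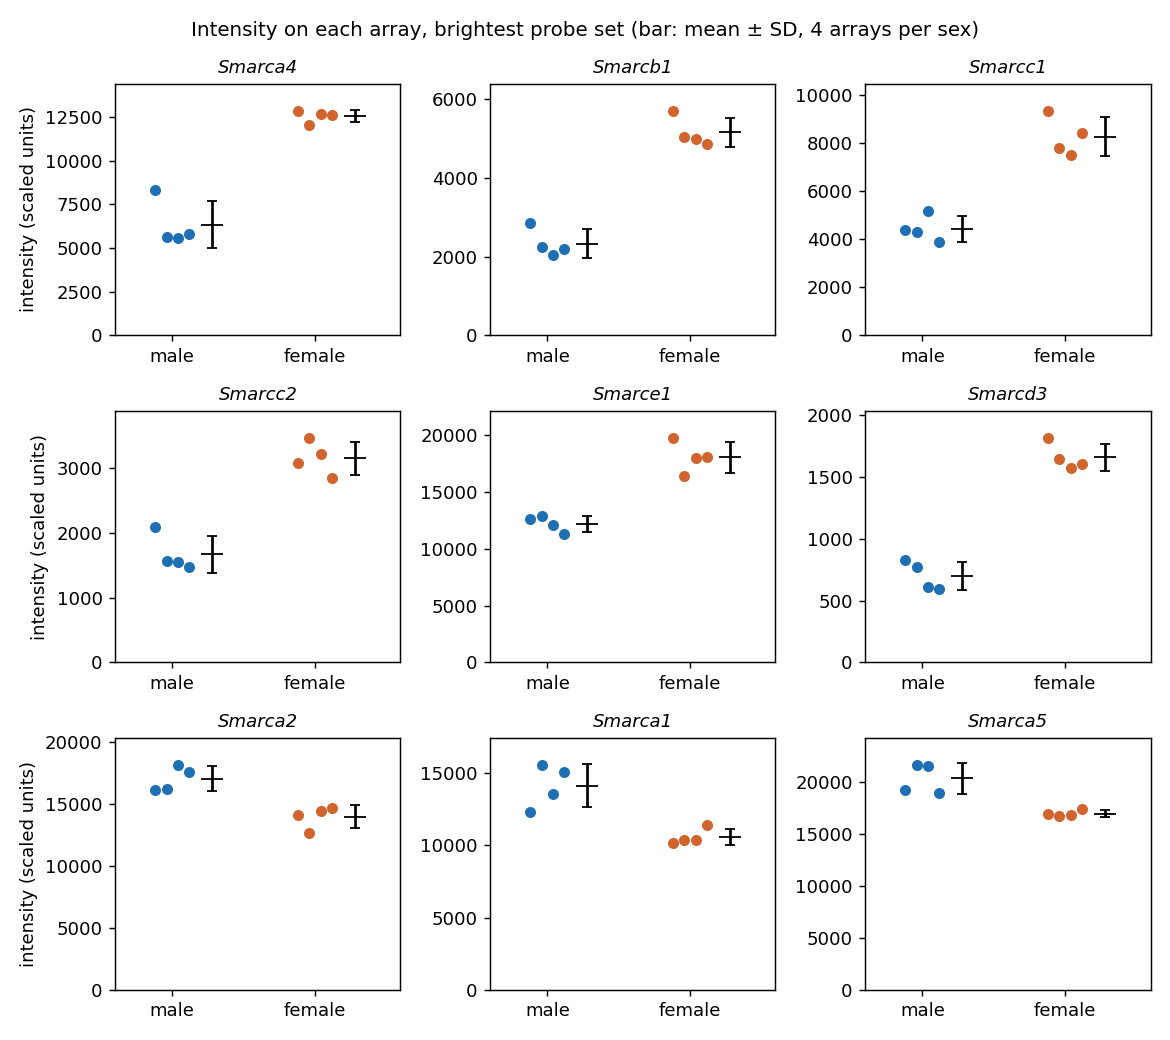
Intensity (linear axes from 0, scaled units) of the brightest probe set of 9 Smarc genes on each array, males left of females; points are arrays and bars are means ± SD (n = 4 per sex). Smarca4 and Smarcb1 lie lower on all male arrays, while Smarca2, Smarca5 and Smarca1 lie higher on all male arrays.

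The CHD remodelers had 4 called genes among 8 tested (50%, against 42.2% of all genes), each lower in males on the brightest probe set. Chd3, a NuRD motor, had 1717, 1360.3, 922 and 1352 in males, against 3961, 4003, 3702 and 2957 in females. The male range lay below the female range, and the difference of -1.46 ± 0.18 (adjusted p = 0.000149) was the most negative among the members' brightest probe sets. Chd4, the main NuRD motor in many tissues, had 1206, 691, 731 and 669.6 in males, against 1893, 1464, 1779.6 and 1724 in females. It was lower on every male array, at -1.08 ± 0.19 (adjusted p = 0.00112), with male replicate 1 above the other males; its dimmer probe set was at 0.13 and did not pass.

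Chd7, the remodeler whose loss causes CHARGE syndrome in humans, was lower in males at -0.87 ± 0.22 (adjusted p = 0.00788). Chd9 was lower at -0.30 ± 0.09, and this call ended without female replicate 1 (adjusted p = 0.0537). Chd1, Chd2, Chd6 and Chd8 were at 0.03, -0.29, 0.05 and -0.37 and were not called. Dimmer probe sets of Chd1 and Chd2 were called higher in males, at 0.93 ± 0.22 and 1.63 ± 0.39.

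Of 11 histone deacetylases, 5 were called (45.5%, against 42.2% of all genes), all lower in males on the brightest probe set. Hdac6, an X-linked deacetylase that acts mainly on tubulin in the cytoplasm, had 1309, 1298, 1412 and 774 in males, against 3310.2, 3319.9, 3410.4 and 2733 in females. The ranges did not overlap, and female replicate 4 lay below the other females. The difference was -1.43 ± 0.18 (adjusted p = 0.000173). Hdac8, the other X-linked deacetylase, had 325, 252, 297 and 273 in males, against 189, 227, 246 and 281 in females. The ranges overlapped and the difference of 0.27 ± 0.20 did not pass (adjusted p = 0.299).

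Hdac1, a catalytic subunit of NuRD, Sin3 and CoREST, had 3801, 3531, 3991 and 3689 in males, against 6618, 5651, 6014 and 7255 in females. Every male array was below every female array, with a difference of -0.76 ± 0.10 (adjusted p = 0.000268). Hdac2, its close paralog, had 23574, 24896, 27650.0 and 25018 in males, against 29831, 29163, 28714 and 25604 in females. The ranges overlapped and its difference of -0.16 ± 0.07 did not pass (adjusted p = 0.079). Both dimmer Hdac2 probe sets were called higher in males, at 0.33 ± 0.08 and 1.19 ± 0.30.

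Hdac11, the class IV deacetylase, was lower in males on both probe sets, at -0.75 ± 0.15 and -1.27 ± 0.20. Hdac4, a class IIa deacetylase, was lower at -0.66 ± 0.15 (adjusted p = 0.00443), and Hdac3, the NCoR-associated enzyme, at -0.44 ± 0.12 (adjusted p = 0.0124). Hdac5, Hdac7, Hdac9 and Hdac10 were at -0.23, -0.44, 0.38 and -0.42 and did not pass.

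The 13 tested lysine demethylases gave 3 calls on the brightest probe set (23.1%, against 42.2% of all genes), all lower in males. Kdm1a, the flavin-dependent H3K4 demethylase of the CoREST complex, had 9687, 10398, 9023 and 9906 in males, against 16077, 15972, 17786 and 19625 in females. The ranges were apart, and the difference was -0.83 ± 0.09 (adjusted p = 6.24e-05). Its dimmer probe set was lower as well, at -0.95 ± 0.11. The H3K9 demethylases Kdm3b and Kdm3a were lower at -0.55 ± 0.10 and -0.30 ± 0.11. The call of Kdm3a ended when any 1 of 6 arrays was left out, all but male replicate 2 and female replicate 3 (highest adjusted p = 0.126).

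The other demethylases did not pass on their brightest probe set: Kdm1b at 0.15, Kdm2a at -0.25, Kdm2b at 0.09, Kdm4a at -0.19, Kdm4c at 0.44, Kdm5a at 0.22, Kdm5b at -0.08, Kdm6b at -0.09, Kdm7a at -0.11 and Kdm8 at -0.48. Dimmer probe sets of Kdm2a (1.45), Kdm5a (0.96), Kdm6b (0.77) and Kdm7a (1.38) were called higher in males. So were 3 dimmer probe sets of Kdm5b, an H3K4 demethylase, at 0.34, 1.51 and 1.08. A dimmer probe set of Kdm2b, which recruits Polycomb to CpG islands, was called lower at -0.20. The Kdm2b call ended without any 1 array other than male replicate 4 (highest adjusted p = 0.128). That of Kdm6b ended without male replicate 1 or 3 or female replicate 1, 2 or 3 (highest adjusted p = 0.112). That of Kdm5b at 0.34 ended without male replicate 2 or female replicate 1, 3 or 4 (highest adjusted p = 0.0731).

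Of 20 tested lysine methyltransferases, 4 were higher and 6 lower in males (50% called, against 42.2% of all genes). Kmt2a, the H3K4 methyltransferase also called Mll1, had 4675, 5416, 3792 and 4545 in males, against 2352, 2718, 2967 and 2410.0 in females. Every male array was above every female array, with a difference of 0.81 ± 0.13 (adjusted p = 0.000637); a dimmer probe set was at 0.35 and did not pass. Setd5, a SET domain protein, had 2639, 3035, 3343 and 2832 in males, against 2276, 1777, 1672 and 1896 in females. It was also higher on every male array, at 0.64 ± 0.13 (adjusted p = 0.00286), while its dimmer probe set was at -0.43 and did not pass.

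Setd7, a monomethyltransferase of H3K4 and of other proteins, had 6785, 7539.9, 7449 and 7895 in males, against 6398, 6281, 5787 and 5639.7 in females. The ranges were apart and the difference was 0.30 ± 0.09 (adjusted p = 0.0188), but the call ended without male replicate 4 or female replicate 3 (highest adjusted p = 0.0583). Setd3, the actin histidine methyltransferase, had 3923, 4404, 4375 and 4386 in males, against 3683, 3591, 3589 and 3201 in females. The ranges were apart at a difference of 0.28 ± 0.10 (adjusted p = 0.0404), and the call ended without any 1 array other than male replicate 1 (highest adjusted p = 0.0912). Its dimmer probe set was called higher at 2.01 ± 0.49.

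Setdb1, an H3K9 methyltransferase that silences transposable elements, was called in both directions. Its brightest probe set had 2968, 2855, 2479 and 2719 in males, against 5461, 5897, 5912 and 4552 in females, lower on every male array, with a difference of -0.98 ± 0.12 (adjusted p = 0.000127). The dimmer one had 1761, 815, 2182 and 950.4 in males, against 249, 808, 753 and 521 in females. There every male array was above every female array, at 1.28 ± 0.38 (adjusted p = 0.0173), a call that ended without male replicate 3 (adjusted p = 0.0586).

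Kmt2e, a SET domain protein of the Mll family, was also called in both directions. Its brightest probe set had 13608, 18465, 15568 and 17789 in males, against 27569, 24950.2, 22456 and 18417 in females. These ranges overlapped, and the difference was -0.51 ± 0.12 (adjusted p = 0.00705). A dimmer probe set had 4281, 1834, 3458 and 2000.2 in males, against 504, 1055, 834 and 1077 in females. It was higher on every male array, at 1.69 ± 0.29 (adjusted p = 0.00101), and another was at 1.67 ± 0.37.

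Kmt2d, an enhancer H3K4 methyltransferase, had 3783, 5727, 4122 and 5532 in males, against 6432, 7152, 6334 and 5553 in females. The ranges overlapped at a difference of -0.43 ± 0.14 (adjusted p = 0.0311), and the call ended without male replicate 1 or 3 or female replicate 1, 2 or 3 (highest adjusted p = 0.0884). Setd2, the enzyme that trimethylates H3K36, was lower at -0.46 ± 0.13, Setd1b, a COMPASS catalytic subunit, at -0.45 ± 0.10, and Setd4 at -0.54 ± 0.18. The call of Setd4 ended without male replicate 2, 3 or 4 or female replicate 1 or 4 (highest adjusted p = 0.0881). Dimmer probe sets of Setd4 were at -0.44 and 0.62 and did not pass. The dimmer Setd1b probe set was lower as well, at -0.82 ± 0.28, a call that ended without male replicate 3 or any 1 female array (highest adjusted p = 0.077).

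Ezh2, the main catalytic subunit of Polycomb repressive complex 2 in embryos, had 14998, 14460.2, 16155 and 13779.9 in males, against 15630.3, 15823, 15598 and 14547 in females. The ranges overlapped, and the difference was -0.05 ± 0.07 (adjusted p = 0.575). Ezh1, its paralog, had 1112, 1209, 1022 and 983 in males, against 916, 1285, 1016 and 844 in females. These ranges overlapped too, at 0.10 ± 0.16 (adjusted p = 0.638).

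The remaining methyltransferases were not called on their brightest probe set: Kmt2b at -0.13, Kmt2c at 0.06, Kmt5a at -0.0016, Kmt5b at 0.05, Kmt5c at -0.17, Setd1a at 0.13, Setd6 at -0.07 and Setdb2 at 0.48. Dimmer probe sets of Kmt5b, an H4K20 methyltransferase, and of Kmt2c were called higher in males, at 0.82 ± 0.16 and 0.99 ± 0.34. The Kmt2c call ended when any 1 of the 8 arrays was left out (highest adjusted p = 0.103).

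**Figure D3:**
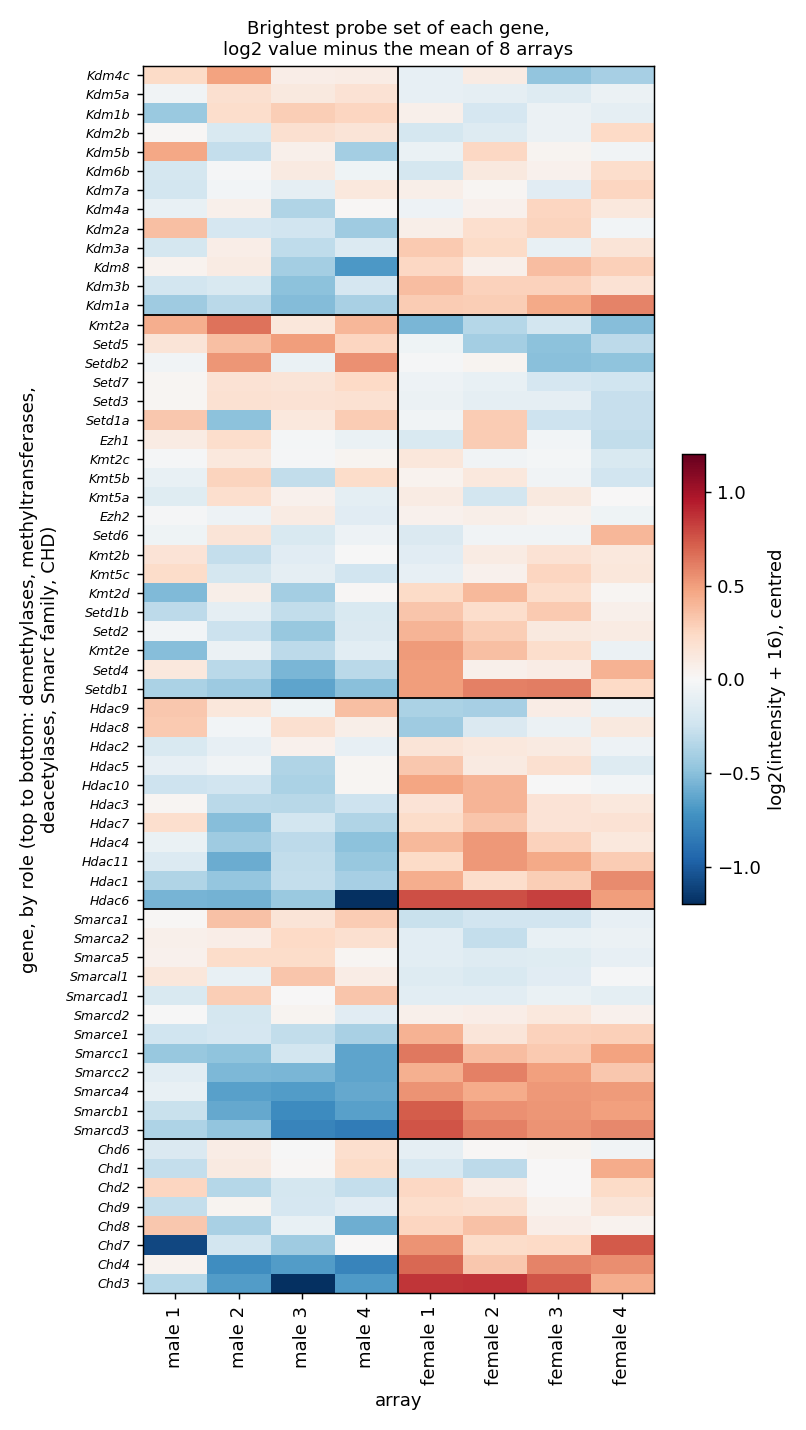
Brightest tested probe set of each of the 64 genes on each array, as the log2 deviation from the gene's mean over all 8 arrays; male arrays are left of female arrays. Genes such as Chd3, Hdac6 and Smarcb1 are low across the male arrays, and Kmt2a and Setd5 are high across them.

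Probe sets of 1 gene often differed in direction. This was tabulated after the values were seen and is a description. The 35 genes with several tested probe sets had 5 higher and 13 lower in males on the brightest; over all such genes 46.2% were called, 18.4% higher and 27.8% lower. Their 55 dimmer probe sets gave 21 higher and 6 lower in males, against a background of 39.7% called, 24.6% higher and 15.1% lower. Of the 55, 6 had a mean at or above the filter in males alone and so were tested only through the males; 4 of them, of Chd2, Kdm2a, Kdm5b and Kmt2c, are among the 21. Another, of Kmt2d, reached it in females alone and was not called. The 48 that reached it in both sexes gave 17 higher and 6 lower. These counts are descriptions and support no direction. The difference of the dimmer probe set was above that of the brightest for 38 of 55 (69.1%), and for 62.7% of 8109 over all genes. Of 11 genes with several called probe sets, 3 were called in both directions, Kmt2e, Setdb1 and Smarcc1; over all genes this share was 24.5%.

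The dimmer probe sets also separated the male arrays. Their median deviation from the female mean was 0.38, 0.07, 0.47 and 0.12 on male replicates 1 to 4. Male replicates 1 and 3 were both above male replicates 2 and 4 for 30 of the 55 (54.5%), and for 33.9% of the dimmer probe sets of all genes. The control ratio of the 3′ to the 5′ end of beta-actin, a measure of how far the labelled RNA reached, was 5.30, 7.94, 5.60 and 9.04 on the same arrays, lowest on replicates 1 and 3. The 18S control intensity was 28985, 23299.5, 33634 and 21050.2 on them and the median intensity 243.9, 211.7, 249.4 and 212.2, both highest on replicates 1 and 3. The beta-actin ratio averaged 6.97 ± 1.82 in males and 7.38 ± 0.86 in females (SD, n = 4 each), a difference that did not pass (exact permutation p = 0.686). Without these replicates the dimmer probe sets gave 11 higher and 9 lower, and the brightest gave 10 higher and 26 lower. Over all tested probe sets 35.4% were called without these replicates, and 42.1% of those calls were higher in males. These 2 shares were not split into dimmer and brightest probe sets, so neither is a like background for the counts before them. The part of these measures in the differences was not tested.

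**Figure D4:**
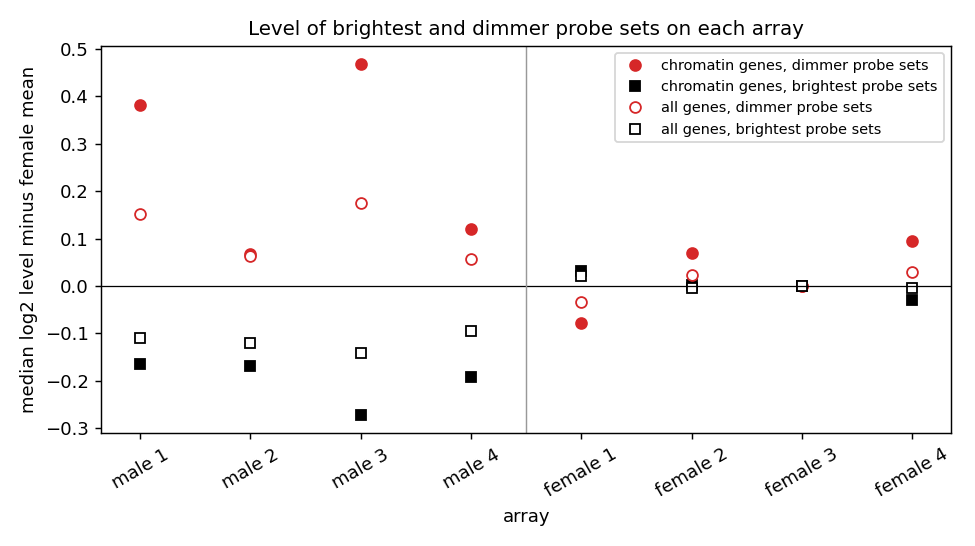
Median deviation from the female mean (log2) of the members' brightest and dimmer tested probe sets on each array, males left of females, with open symbols for all genes. The members' dimmer probe sets stand at 0.38 and 0.47 on male replicates 1 and 3 and at 0.07 and 0.12 on male replicates 2 and 4.

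Paralogs were compared as log ratios within each array, which asks whether the balance of alternative subunits differed between the sexes. The level of such a ratio depends on both probe sets, so only its difference between the sexes is read. Of 17 pairs, 16 could be tested, and 7 had non-overlapping ranges at the smallest p the design allows (exact permutation test, two-sided p = 0.0286, adjusted p = 0.0653), so none passed after adjustment. The log ratio of Smarca4 over Smarca2 was -0.95, -1.53, -1.71 and -1.60 in males, against -0.14, -0.07, -0.19 and -0.22 in females. Its difference was -1.29, with all males below all females. That of Kmt2a over Kmt2b was 0.68, 1.34, 0.68 and 0.80 in males, against -0.01, -0.03, 0.02 and -0.23 in females, a difference of 0.94. Those of Hdac1 over Hdac2 and Kdm4a over Kdm4c differed by -0.60 and -0.62, and those of Kmt2c over Kmt2d, Hdac4 over Hdac5 and Kdm3a over Kdm3b by 0.49, -0.42 and 0.25. Ezh2 over Ezh1 differed by -0.16, with overlapping ranges.

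Partner subunits and other chromatin genes from 8 lists were read from the same fit. Of 84 tested, 11 were higher and 38 lower in males, with a median difference of -0.20, against -0.12 over the brightest probe sets of all genes, of which 42.2% were called, 14% higher and 28.2% lower. The lists are small, and their counts below are read against these shares as descriptions. Among accessory subunits of BAF complexes 2 of 13 were higher, Pbrm1 at 0.99 ± 0.10 and Arid2 at 0.50 ± 0.08, and 6 lower, led by Bcl7a at -1.58 ± 0.21 and Bcl7b at -0.86 ± 0.18. Pbrm1 and Arid2 are subunits of the polybromo form of the complex, but its other listed subunits did not follow them. Brd7 was called lower at -0.37 ± 0.09, and Phf10 at 0.20 was not called.

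Among 15 genes of NuRD, Sin3 and CoREST, 8 were lower in males, led by the NuRD subunits Mbd3 at -1.49 ± 0.23 and Mta2 at -1.30 ± 0.16, and Rcor3 was higher at 0.99 ± 0.14. Of 9 COMPASS subunits, 5 were lower, led by Paxip1 at -0.87 ± 0.19 and Hcfc1 at -0.74 ± 0.11, and none was higher. Of 14 Polycomb genes, 3 were higher, among them Rnf2 at 0.40 ± 0.09 and Bmi1 at 0.22 ± 0.07. Another 5 were lower, among them Phc2 at -0.87 ± 0.12 and Bap1 at -0.70 ± 0.13. Polycomb repressive complex 1 holds Rnf2 and Bmi1, but also the lower Phc2, Phc1 (-0.55 ± 0.10) and Cbx8 (-0.55 ± 0.19).

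Of 9 acetyltransferases, 3 were lower, led by Kat2a at -1.30 ± 0.17 and Kat5 at -0.74 ± 0.17, and Kat6b was higher at 0.32 ± 0.10. Of 10 partners of ISWI and INO80, 5 were lower, led by Ruvbl2 at -1.13 ± 0.17 and Ino80 at -0.59 ± 0.15. Of 8 other methyltransferases, 3 were lower, led by Prmt1 at -1.02 ± 0.14 and Ehmt2 at -0.75 ± 0.13, and Dot1l was higher at 0.71 ± 0.26. All 6 tested genes of DNA methylation were called. In males 3 were higher, led by the 5-methylcytosine oxidases Tet2 at 1.17 ± 0.32 and Tet1 at 0.85 ± 0.14, and 3 lower, led by the maintenance methyltransferase Dnmt1 at -0.63 ± 0.08 and the de novo enzyme Dnmt3b at -0.57 ± 0.11.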

How the data were processed

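Expression was measured in 4 male and 4 female genital tubercle samples, grouped by the sex in the labels. Total RNA was amplified in 2 rounds and labelled with biotin, per the labels' protocols. The deposited values are linear intensities per probe set, made by the authors with GCOS, per the submitters' processing notes. The mean trimmed by 2% at each end was 1500.01 on every array, so the values were not normalized again. Of 45101 probe sets, 64 were controls. The platform annotation gave 1 gene for 34945, more than 1 for 932 and no gene for 9160. All 68 member symbols matched RefSeq (GRCm38.p6). Of the 119 tested member probe sets, 23 have a name suffix that marks probes shared between transcripts.

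Intensities were transformed as log2(intensity + 16). Probe sets with a mean at or above the median of all means (7.77) were tested with limma 3.58.1 in R 4.3.3 (lmFit, eBayes with trend), with sex as the only term. Single values per array were compared with an exact permutation test in scipy 1.17.1. The fit was tested on simulated data with independent noise for each probe set and no shift shared across an array. The simulation therefore cannot show how the calls behave under the array differences given above. Alternatives were other scalings, pseudocounts, filters and variance models, weights per array, the 18S level as a covariate, a block for replicate number, the mean of a gene's probe sets and leaving out arrays.

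The members and lists were chosen with earlier results of these data known. All 64 tested members are named with their difference, and the other 4 with their intensities. Values on every array are given for the 6 called genes that differed most in each direction, the X-linked members, genes called in both directions and Ezh1, Ezh2, Hdac1, Hdac2, Smarca4, Smarca2, Chd4, Kdm1a and Kmt2d. Up to 2 called genes in each direction are named for each partner list, apart from further subunits of the polybromo form and of Polycomb repressive complex 1. The comparison of brightest with dimmer probe sets, the tabulation of male replicates 1 and 3, the promoters shown and the limma fit of paralog ratios without the replicate block were chosen after values were seen.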

Additional observations from a re-analysis of the deposited data

Results flagged for a closer look

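Of 44 groups of 4 arrays examined among the members given with array values, 4 held an array far from the other 3 by Dixon's criterion; chance alone finds about 1 in 20 such groups. Male replicate 1 lay below the other males for Setd3, with an intensity of 3923, and above them for Chd4, with 1206, and Smarca4, with 8339. Female replicate 4 lay below the other females for Hdac6, with 2733.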

How the results depend on the processing

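Of 1329 gene values recomputed over the alternatives, 1187 kept their side of the threshold and were not counted as reversed. Another 71 no longer passed, 63 newly passed and 8 reversed. The reversals all arose when the tested probe sets of a gene were averaged: Chd2 0.67, Hdac2 0.45, Kdm5b 0.71, Kdm7a 0.46, Kmt2e 0.85, Setdb1 0.15, Smarcal1 -0.37 and Smarcc1 0.41. Only values past the threshold in the original or the alternative fit were counted as reversed, a rule adopted after the first tabulation. Among the 1187, 37 values of 15 genes changed sign while passing in neither fit. Averaging gave 16 genes higher and 22 lower in males, array weights 11 and 30, and median centring 2 and 33, against 7 and 24. With averaging 42.1% of the called members were higher. Over all genes 43.1% were called in that fit, and 39.9% of those calls were higher. Of all tested probe sets 46.0% were called with array weights and 44.2% with median centring, against 40.5%. With the upper-quartile filter, which tests fewer probe sets, 15 of 69 member probe sets were called higher and 25 lower. Of all 11260 tested with that filter, 5890 (52.3%) were called. With the 18S covariate, 9 member probe sets were called (1 higher, 8 lower), 7 genes (0 higher, 7 lower) and 414 of all probe sets; the 18S ranges of the sexes do not overlap. Leaving out single arrays gave 47 to 65 member probe sets (23 to 31 higher, 24 to 34 lower), 26 to 39 genes (5 to 11 higher, 20 to 28 lower) and 7358 to 9468 of all; the 11 came without male replicate 1. Without probe sets of shared suffix, 44 member probe sets were called (22 higher, 22 lower). The deviations of same-numbered samples from their group means had r from -0.13 to 0.04, and those of differently numbered samples from -0.20 to 0.21. With so few samples per sex, these values cannot decide whether the numbers mark a shared litter or processing day. The replicate block gave 55 member probe sets and 31 genes, ending the call of Setd3 (adjusted p = 0.0703) and adding Kdm4c (adjusted p = 0.0394). For the paralog ratios, limma called 5 pairs without and 4 with the replicate block, where the exact test passed 0 and could not have passed its 7 pairs at the smallest p over 16; the fit without the block was chosen after seeing the data. The causes of these changes were not tested.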
